A study of Caenorhabditis elegans with 21 samples.

Results

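The genes described here are 7 transcriptional regulators of lipid metabolism in *C. elegans*: the nuclear hormone receptor genes *nhr-49*, *nhr-80*, *nhr-13*, *nhr-66* and *nhr-62*, the Mediator subunit gene *mdt-15* and the SREBP gene *sbp-1*. They were chosen by name out of 24189 genes listed in either of the 2 expression tables. Earlier results of these data were known when they and the gene lists used below were chosen. All 7 were listed in both tables and passed the filter on low values. RNA of whole wild-type N2 animals was sequenced in 21 libraries of 7 groups with 3 libraries each, which the study describes as independent biological replicates. The L1 larvae, about 10000 animals per library, were F4+3 animals without food, control animals without food, F4+3 animals with food and control animals with food. F4+3 animals are the great-grandchildren of F4 animals that had been starved as L1 larvae over consecutive generations, with fed generations between, and control lines had always been fed before collection. The day 1 adults, about 100 manually picked animals per library, were sterile F4 animals (without eggs), fertile F4 animals (carrying eggs) and always fed control animals (also carrying eggs). Both F4 groups had themselves been starved as L1 larvae and were fed when collected. Larvae without food were collected a few hours later after egg preparation than larvae with food, so food and collection time cannot be told apart. All adult groups were picked by the presence or absence of eggs. The germ cell content of sterile animals therefore differs by selection from that of both fertile and control animals.

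NHR-49 is a receptor related to mammalian HNF4 that promotes fatty acid desaturation and β-oxidation and is known for its role in the response to fasting. It works with partner receptors, of which NHR-80 and NHR-13 act with it on fatty acid desaturation and NHR-66 acts with it in the repression of other lipid genes. NHR-62 is another HNF4-related receptor, known for its role in the longevity of animals under dietary restriction. MDT-15 is the *C. elegans* MED15, a subunit of the Mediator complex that links transcription factors to RNA polymerase II, and it is a coactivator of both NHR-49 and SBP-1. SBP-1 is the worm SREBP, a membrane-bound activator of fatty acid synthesis and desaturation genes. The fatty acid desaturase genes *fat-5*, *fat-6* and *fat-7* and the acyl-CoA synthetase gene *acs-2* are their best known targets.

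Values are normalized counts, that is, the reads counted for a gene after division by the size factor of its library. The reads behind them ranged from 25209530 to 53482585 (median 41461538) in the 12 L1 libraries and from 12187063 to 22942483 (median 18356657) in the 9 adult libraries. The tables of larvae and adults were normalized separately, so no level was compared between them. In the WBcel235 annotation *nhr-49* (WBGene00003639) and *nhr-62* (WBGene00003652) lie on chromosome I, *nhr-80* (WBGene00003670), *mdt-15* (WBGene00007016) and *sbp-1* (WBGene00004735) on III, *nhr-66* (WBGene00003656) on IV and *nhr-13* (WBGene00003612) on V. Exons of *nhr-66*, *mdt-15* and *sbp-1* overlap those of a gene on the other strand by 22 to 108 bases, and *mdt-15* shares 93 exon bases with a gene on its own strand. How strand was treated in counting is not given in the sources used here, so a small part of the reads of these genes may come from the overlapping genes.

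Per kb of exon, *nhr-49* and *mdt-15* led in both tables, while the order of the other 5 regulators by median differed between larvae and adults. In larvae *nhr-49* ranged from 3026 to 5349 normalized counts per kb (median 4080) and *mdt-15* from 2120 to 5153 (median 3815). *sbp-1* followed with a median of 1192 per kb, *nhr-66* with 559, *nhr-62* with 517, *nhr-80* with 339 and *nhr-13* with 144. The ranges of *nhr-66* (459 to 749) and *nhr-62* (327 to 673) overlapped over the 12 L1 libraries, as did those of *nhr-62* and *nhr-80* (298 to 402), whereas every library had more *sbp-1* than *nhr-66* and least *nhr-13* per kb. In adults *nhr-49* ranged from 600 to 684 per kb (median 655) and *mdt-15* from 483 to 641 (median 615). *nhr-66* (101 to 383, median 259) and *sbp-1* (131 to 296, median 144) overlapped in adults, and *nhr-13*, *nhr-80* and *nhr-62* had medians of 85.8, 79.6 and 52.6 per kb with overlapping ranges. *nhr-49* and *mdt-15* were therefore the most abundant of the 7 transcripts per length at both stages.

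The first question was how food at the L1 stage acts on these regulators. In larvae without food *mdt-15* and *sbp-1* were higher than in larvae with food in both ancestries, while *nhr-49* did not pass the test in either. *mdt-15* had 22048, 18972 and 21042 normalized counts in control larvae without food, against 13814, 13641 and 12372 in control larvae with food. All libraries without food lay above all libraries with food, and the log2 fold change was 0.64 (SE 0.13, limma adjusted p = 0.000714). *mdt-15* in F4+3 larvae had 18834, 19655 and 19069 normalized counts without food, against 13446, 11521 and 9072 with food. The groups were again separate, with a log2 fold change of 0.78 (SE 0.13, limma adjusted p = 0.000131).

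*sbp-1* had 4461, 4276 and 4381 normalized counts in control larvae without food, against 3385, 3056 and 3111 in control larvae with food. The groups did not overlap, and the log2 fold change was 0.46 (SE 0.10, limma adjusted p = 0.00155). *sbp-1* in F4+3 larvae had 4160, 4369 and 4336 normalized counts without food, against 3054, 3367 and 3930 with food, which gave a log2 fold change of 0.32 (SE 0.10, limma adjusted p = 0.0160). Both calls of *mdt-15* and both of *sbp-1* were kept under all 20 alternatives of processing or left-out libraries.

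Among the receptors, *nhr-62* was higher without food in both ancestries, *nhr-13* passed, higher, in F4+3 but not in control larvae and *nhr-66* passed, lower, in control but not in F4+3 larvae, and the calls of *nhr-62* and *nhr-66* depended on single libraries. *nhr-62* had 741, 1104 and 908 normalized counts in control larvae without food, against 542, 602 and 809 in control larvae with food. These groups overlapped, and the log2 fold change of 0.50 (SE 0.18) passed with an adjusted p of 0.0315 in limma, but did not pass without control larvae with food replicate 1 (adjusted p = 0.123, limma) or without control larvae without food replicate 2 (adjusted p = 0.147, limma). In F4+3 larvae *nhr-62* had 1117, 962 and 983 normalized counts without food, against 640, 766 and 953 with food. There the groups were separate by a small gap, and the log2 fold change of 0.39 (SE 0.18, limma adjusted p = 0.0826) was lost when any of 5 of the 6 libraries was left out, with adjusted p of 0.301 and 0.157 without F4+3 larvae with food replicates 1 and 2 and of 0.202, 0.108 and 0.112 without F4+3 larvae without food replicates 1, 2 and 3 (limma).

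*nhr-13*, the scarcest of the 7, had 210, 193 and 263 normalized counts in F4+3 larvae without food, against 159, 153 and 145 in F4+3 larvae with food. The groups did not overlap, and the log2 fold change was 0.53 (SE 0.16, limma adjusted p = 0.0122). In control larvae it had 270, 215 and 222 normalized counts without food, against 218, 182 and 197 with food, which overlapped, and the log2 fold change of 0.24 (SE 0.16, limma adjusted p = 0.224) did not pass. The call in F4+3 larvae was kept under all 20 alternatives. The difference between the ancestries in this food effect was itself 0.29 on the log2 scale with a 95% interval from −0.19 to 0.77 and did not pass in limma, so the food effect on *nhr-13* was not shown to depend on ancestry.

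*nhr-66* had 2220, 2311 and 2468 normalized counts in control larvae without food, against 2776, 2610 and 3240 in control larvae with food. The groups were separate and the log2 fold change was −0.30 (SE 0.12, limma adjusted p = 0.0551), with no call without control larvae with food replicate 3 (adjusted p = 0.210) or without control larvae without food replicates 1 or 2 (adjusted p = 0.150 and 0.111, limma). In quantile-normalized values the change was −0.055 (adjusted p = 0.726, limma). *nhr-66* in F4+3 larvae had 2947, 2463 and 2692 normalized counts without food, against 2706, 3193 and 3620 with food, with a log2 fold change of −0.23 (SE 0.12, limma adjusted p = 0.138). It passed there without F4+3 larvae with food replicate 1 (adjusted p = 0.0408) or without F4+3 larvae without food replicate 1 (adjusted p = 0.0885, limma).

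The levels of *nhr-49* and *nhr-80* overlapped or lay close between larvae without and with food. *nhr-49* had 7975, 8755 and 9083 normalized counts in control larvae without food, against 6454, 9050 and 9607 with food, and its log2 fold change was 0.059 (95% interval −0.27 to 0.39). *nhr-49* in F4+3 larvae had 11410, 9405 and 8044 normalized counts without food, against 8345, 8649 and 7240 with food, with a log2 fold change of 0.24 (95% interval −0.086 to 0.57), which passed without F4+3 larvae without food replicate 3 (adjusted p = 0.0771, limma) and in quantile-normalized values (adjusted p = 0.0231, limma). *nhr-80* had 576, 551 and 620 normalized counts in control larvae without food, against 727, 566 and 698 with food, a log2 fold change of −0.18 (95% interval −0.45 to 0.083) that passed without control larvae with food replicate 2 (adjusted p = 0.0691, limma). In F4+3 larvae *nhr-80* had 546, 615 and 625 normalized counts without food, against 634, 667 and 738 with food, a log2 fold change of −0.19 (95% interval −0.45 to 0.074), and its sign turned in quantile-normalized values in both ancestries. These intervals leave room for changes of about the size seen in *nhr-66*.

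**Figure D1:**
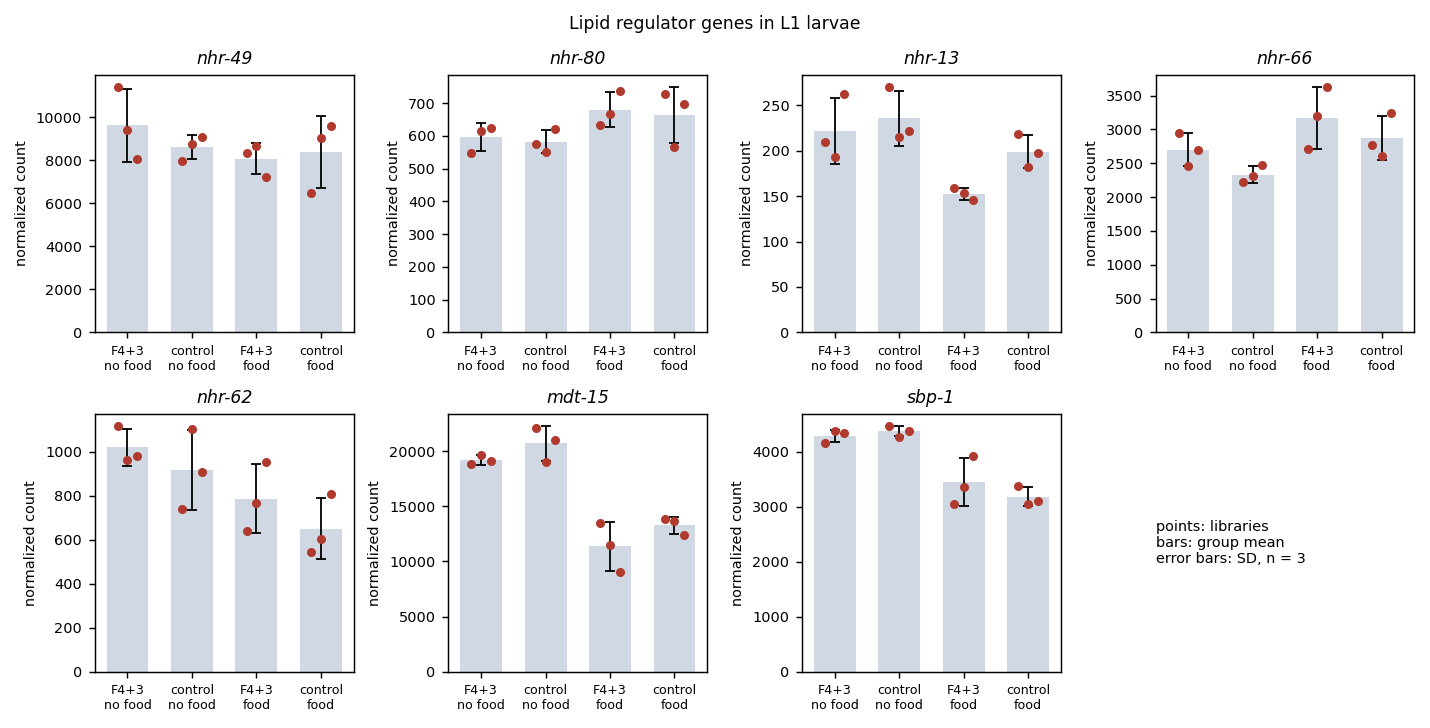
Normalized counts (y axis, linear, from 0) of the 7 regulators in L1 larvae, with points for libraries, bars for group means and error bars for the SD (n = 3). In *mdt-15* and *sbp-1* the libraries without food, drawn on the left of each panel, all lie above those with food, while in *nhr-49* the groups overlap.

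Of the 7 regulators, 4 passed without food in control larvae (3 higher, 1 lower), where 58.1% of all 15902 genes tested passed (27.6% higher, 30.5% lower). In F4+3 larvae 4 passed, all of them higher, where 57.5% of all genes passed (27.1% higher, 30.4% lower). The libraries without food did not overlap those with food in 3 of the 7 genes in control larvae and in 5 of the 7 in F4+3 larvae, as in 58.3% and 59.3% of all genes. A change with food was thus about as frequent among the regulators as among all genes, and their median log2 fold changes were 0.24 in control and 0.32 in F4+3 larvae, against 0.037 and 0.023 over all genes. Leaving out 1 library moved the number that passed between 2 and 5 in control larvae and between 3 and 4 in F4+3 larvae. It was 2 without control larvae without food replicate 2, where *nhr-62* and *nhr-66* were lost. Of the 219 other *nhr-* genes tested, 97 were higher and 31 lower without food in control larvae (median 0.32), and 100 were higher and 27 lower in F4+3 larvae (median 0.34).

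The rise of *mdt-15* without food stood beside lower levels of most other genes of the Mediator complex. Of 27 other subunit genes measured, 19 were lower and 1 higher without food in control larvae (median log2 fold change −0.48), and 19 were lower and none higher in F4+3 larvae (median −0.53). Over all genes tested 30.5% and 30.4% were lower. *mdt-18* averaged 147 ± 22 normalized counts in control larvae without food and 407 ± 84 in control larvae with food (SD, n = 3 each), with a log2 fold change of −1.46 (adjusted p = 4.08e-06, limma). *mdt-30* averaged 859 ± 155 without food and 1689 ± 107 with food in control larvae, with a log2 fold change of −0.99 (adjusted p = 5.12e-05, limma). The change of *mdt-15* lay above that of all 27 other subunit genes in both ancestries. Within each library, which does not depend on the scaling between libraries, log2 of *mdt-15* exceeded the mean log2 of the other subunit genes by 5.14 ± 0.12 in control larvae without food and by 3.95 ± 0.11 in control larvae with food (SD, n = 3 each). In F4+3 larvae this excess was 4.98 ± 0.03 without food and 3.70 ± 0.33 with food, so in both ancestries the groups differed by far more than their spread. This ratio was chosen after its values were seen.

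**Figure D2:**
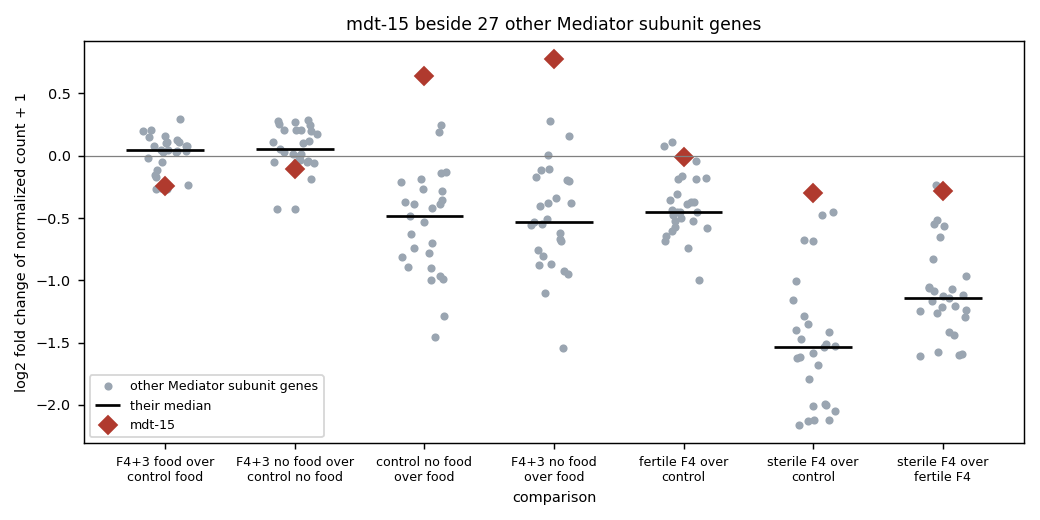
Log2 fold changes (y axis, on normalized count plus 1) of *mdt-15* (diamonds) and of 27 other Mediator subunit genes (grey points, black line for their median) in 7 comparisons (x axis). In the comparisons of no food with food *mdt-15* lies above 0 and above all other subunit genes, whose median is −0.48 or −0.53, and in sterile adults over control it lies at −0.30 above a median of −1.53, although its own sign there turns to positive with quantile normalization.

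The known targets of the regulators did not move as a block without food. Of 10 NHR-49 target genes measured, 7 were higher and 1 lower in control larvae without food (median log2 fold change 1.26), and 9 were higher and 1 lower in F4+3 larvae (median 1.69). Over all genes tested 27.6% were higher and 30.5% lower in control larvae, and 27.1% and 30.4% in F4+3 larvae. *fat-5*, a palmitoyl-CoA desaturase gene, had 1626, 1377 and 1281 normalized counts in control larvae without food, against 246, 182 and 158 in control larvae with food, with a log2 fold change of 2.88 (SE 0.17, limma adjusted p = 8.05e-09). *acs-2*, the acyl-CoA synthetase gene of mitochondrial β-oxidation, averaged 7278 ± 3363 normalized counts in control larvae without food and 799 ± 447 with food (SD, n = 3 each), a log2 fold change of 3.27 (adjusted p = 8.71e-06, limma). *fat-7* moved the other way and had 82.5, 95.3 and 47.9 normalized counts in control larvae without food, against 582, 591 and 772 with food. Its log2 fold change was −3.14 (adjusted p = 1.13e-05, limma), whereas that of its close relative *fat-6* was 0.83 (adjusted p = 0.00383, limma). Whether the counting mixed reads of these related genes was not tested. In F4+3 larvae the log2 fold changes without food were 3.06 for *fat-5*, 4.33 for *acs-2*, −2.14 for *fat-7* and 0.48 for *fat-6*, and that of *fat-6* (adjusted p = 0.0669, limma) was lost in 4 of the 6 fits that left out a library of these groups, namely without F4+3 larvae with food replicate 2 (0.159) or 3 (0.116) and without F4+3 larvae without food replicate 1 (0.259) or 2 (0.119).

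Of 14 lipogenic target genes of SBP-1 and MDT-15, which include the 3 desaturase genes, 3 were higher and 8 lower without food in control larvae (median −0.66), and 3 were higher and 9 lower in F4+3 larvae (median −0.72), although *sbp-1* and *mdt-15* were themselves higher. *elo-2*, a fatty acid elongase gene, averaged 2073 ± 61 normalized counts in control larvae without food and 10619 ± 1706 with food, a log2 fold change of −2.34 (adjusted p = 3.08e-09, limma). *sams-1*, the S-adenosylmethionine synthetase gene that ties phosphatidylcholine synthesis to SBP-1, averaged 9148 ± 1402 without food and 77510 ± 13424 with food, a log2 fold change of −3.08 (adjusted p = 6.22e-09, limma). Of 26 other regulators of lipid metabolism, 8 were higher and 8 lower in control larvae, and likewise 8 and 8 in F4+3 larvae. These counts are near the shares over all genes, of which 27.6% were higher and 30.5% lower in control larvae and 27.1% and 30.4% in F4+3 larvae. The receptor gene *nhr-23*, which is also known from molting, had the lowest log2 fold change in control larvae among the other regulators named by rule, with 288 ± 43 normalized counts without food and 1689 ± 259 with food (log2 fold change −2.55, adjusted p = 3.78e-08, limma).

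The summed levels of some tissue markers moved with food as well, in both ancestries. The summed level of 11 intestine markers ranged from 387740 to 415070 normalized counts in control larvae without food, against 512024 to 661693 with food, and that of 8 hypodermis markers from 4434 to 6398 without food, against 10435 to 12894 with food. That of 12 germline markers ranged from 6776 to 7021 without food, against 8443 to 9536 with food, in control larvae. In F4+3 larvae the intestine sum was 424658 to 487776 without food, against 511739 to 541486 with food, the hypodermis sum 5768 to 7394, against 10905 to 14292, and the germline sum 6230 to 7259, against 9057 to 10304. The oocyte and embryo sum was lower without food too. The body wall muscle sum was higher in F4+3 larvae, with 1117450 to 1248030 without food, against 997042 to 1039290 with food. In control larvae it overlapped. The sperm sum was higher in control larvae, with 601 to 648 without food, against 501 to 598 with food. In F4+3 larvae the sperm sum overlapped. In control larvae, of the 11 intestine markers 5 were higher and 6 lower, and none of the markers measured was at 0 in all libraries of a group. Only some of the 12 germline markers passed without food: 4 were lower and 1 higher in control larvae, and 5 lower and 2 higher in F4+3 larvae. Over all genes 30.5% and 30.4% were lower. In whole animals fewer cells of a type and less RNA per cell cannot be told apart, and the part of these shifts in the values of the regulators was not tested.

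The second question was whether ancestral starvation changes the regulators in descendants. With food, none of the 7 passed in F4+3 against control larvae, where 0.0126% of all 15902 genes passed (2 genes, both lower), and 1 of the 7 had an unadjusted p under 0.05 in limma, as it did in edgeR and in DESeq2, which called none. That gene was *nhr-13*, with 159, 153 and 145 normalized counts in F4+3 larvae with food, against 218, 182 and 197 in control larvae with food. All F4+3 libraries lay below all control libraries, as 12.8% of all genes did in either direction, and the log2 fold change was −0.38 (95% interval −0.72 to −0.040, adjusted p = 0.505, limma). *mdt-15* had 13446, 11521 and 9072 normalized counts in F4+3 larvae with food, against 13814, 13641 and 12372 in control larvae, a log2 fold change of −0.24 (95% interval −0.52 to 0.031). The widest interval was that of *nhr-62*, −0.11 to 0.66 around 0.27, so a change anywhere in that range is not excluded for this gene.

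Without food, none of the 7 passed in F4+3 against control larvae and none had an unadjusted p under 0.05 in limma, edgeR or DESeq2, where 0.0% of all genes passed. *nhr-66* came nearest, with 2947, 2463 and 2692 normalized counts in F4+3 larvae without food, against 2220, 2311 and 2468 in control larvae without food. These groups overlapped slightly, as all 7 genes did and unlike 10.6% of all genes, and the log2 fold change was 0.21 (95% interval −0.052 to 0.47). The other 6 genes lay between −0.11 (*mdt-15*) and 0.17 (*nhr-62*). The difference of the ancestry effect between larvae without and with food passed for none of the 7 and for 0.0% of all genes, with no unadjusted p under 0.05 among the 7 in the 3 tools. Of the target and regulator lists, including the other *nhr-* genes, no gene passed in these comparisons. Without control larvae with food replicate 3, however, 128 of all genes passed between F4+3 and control larvae with food, among them 4 other *nhr-* genes (1 higher, 3 lower) and 1 other lipid regulator, and none of the 7. DESeq2 called 6 other *nhr-* genes (1 higher, 5 lower), 1 NHR-49 target and 1 lipogenic target there, and 2 other *nhr-* genes without food. *fat-7* had the largest difference of the 4 targets between F4+3 and control larvae without food, 171 ± 130 against 75.2 ± 24.5 normalized counts (SD, n = 3 each), with a log2 fold change of 0.94 and an adjusted p of 0.941 in limma.

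The third question was how the regulators differ in adults that had been starved as larvae. In fertile F4 adults none of the 7 passed against control adults, where 21.9% of all 13413 genes tested passed (9.86% higher, 12% lower). That number of calls, 2936, was itself unstable: it was between 975 and 1981 when any 1 control or fertile library was left out, with the lowest value without control replicate 1, and 4880 without sterile replicate 1. In limma and DESeq2 1 of the 7 had an unadjusted p under 0.05, in edgeR none had, and neither edgeR nor DESeq2 called any. *nhr-66* had 1194, 1357 and 1254 normalized counts in fertile F4 adults, against 1852, 1609 and 1493 in control adults. All fertile libraries lay below all control libraries, as was the case in either direction for 51.1% of all genes, and the log2 fold change was −0.38 (95% interval −0.71 to −0.045, adjusted p = 0.0918, limma). It passed when the sterile libraries were left out of the fit (adjusted p = 0.0149, limma) or when only sterile replicate 1 was (adjusted p = 0.0144, limma). These were the only 2 of 17 alternatives in which it passed. Over all 17 the log2 fold change ranged from −0.45 to −0.088, and from −0.45 to −0.29 when 1 library was left out. *nhr-13* had 122, 128 and 113 normalized counts in fertile F4 adults, against 169, 146 and 136 in control adults. These groups were separate too, and the log2 fold change of −0.31 (95% interval −0.76 to 0.14, adjusted p = 0.282, limma) did not pass.

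The other 5 regulators did not pass between fertile F4 and control adults either. *mdt-15* had 2489, 2717 and 2742 normalized counts in fertile F4 adults, against 2738, 2641 and 2630 in control adults, a log2 fold change of −0.012 (95% interval −0.22 to 0.20). *nhr-49* had 1303, 1349 and 1439 normalized counts in fertile F4 adults, against 1411, 1460 and 1404 in control adults, a log2 fold change of −0.064 (95% interval −0.28 to 0.15). Both signs turned to positive with TMM or quantile scaling. *sbp-1* and *nhr-80* had log2 fold changes of 0.052 (95% interval −0.28 to 0.38) and 0.13 (95% interval −0.29 to 0.55). *nhr-62* had 88.97, 52.6 and 53.9 normalized counts in fertile F4 adults, against 65.6, 87.9 and 56.9 in control adults, and its log2 fold change of −0.12 had the widest interval of the 7 (95% interval −0.76 to 0.51).

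Some lipid genes did pass in fertile F4 adults. *fasn-1*, the fatty acid synthase gene and a target of SBP-1, averaged 17369 ± 627 normalized counts in fertile F4 adults and 10383 ± 464 in control adults (SD, n = 3 each), a log2 fold change of 0.74 (adjusted p = 0.00177, limma). *elo-5*, an elongase gene of branched-chain fatty acids, averaged 1629 ± 240 in fertile F4 and 2856 ± 136 in control adults, a log2 fold change of −0.82 (adjusted p = 0.00577, limma). Among the 14 lipogenic targets 2 were higher and 2 lower, and among the 10 NHR-49 targets 3 were higher and none lower. Over all genes tested 21.9% passed in this comparison (9.86% higher, 12% lower). The number of NHR-49 targets that passed was 0 without control replicate 1 or without fertile replicate 1 or 3, 1 without control replicate 2 or 3, and 4 without sterile replicate 1 or 2. *fat-5* was one of these 3 NHR-49 targets, with 410, 337 and 411 normalized counts in fertile F4 adults, against 300, 274 and 252 in control adults, and its log2 fold change of 0.49 (adjusted p = 0.0294, limma) was not called without control replicates 1, 2 or 3 (adjusted p = 0.0611, 0.0877 and 0.0989) or without fertile replicates 1 or 3 (adjusted p = 0.0834 and 0.0831, limma). *fat-7* averaged 942 ± 15 normalized counts in fertile F4 and 609 ± 182 in control adults, a log2 fold change of 0.67 with an adjusted p of 0.0638, which passed in 9 of 17 alternatives. Of 27 Mediator genes other than *mdt-15* 10 were lower, a number that was 1 without control replicate 1, 4 to 6 without any other control or fertile library, and 18 without sterile replicate 1.

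In sterile F4 adults most of the regulators differed from control adults, in opposite directions. *nhr-80* and *sbp-1* were higher than in control adults, and *nhr-66* and *nhr-13* were lower. *nhr-62* was higher in a call that depended on single libraries and on the scaling. *mdt-15* was lower in a call that depended on the scaling, and *nhr-49* did not pass. With the deposited scaling, 6 of the 7 passed (3 higher, 3 lower), where 83.0% of all 13413 genes tested passed (41.3% higher, 41.8% lower), so a change as such was about as frequent among them as among all genes. The comparison with fertile F4 adults gave 5 of 7 past the threshold (3 higher, 2 lower), where 78.4% of all genes passed (38.8% higher, 39.6% lower). The sterile libraries did not overlap the control libraries in 6 of the 7 genes, or the fertile libraries in 4 of the 7, as in 86% and 78.5% of all genes. Both comparisons use the same 3 sterile libraries.

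*nhr-80*, the partner of NHR-49 in desaturation, had 392, 290 and 411 normalized counts in sterile F4 adults, 146, 147 and 123 in fertile F4 adults, and 103, 139 and 141 in control adults. All sterile libraries lay above all others, with log2 fold changes of 1.51 over control (SE 0.19, limma adjusted p = 1.50e-05) and 1.38 over fertile F4 adults (SE 0.19, limma adjusted p = 5.24e-05). *nhr-66* went the other way, with 490, 671 and 728 normalized counts in sterile F4 adults, 1194, 1357 and 1254 in fertile F4 adults, and 1852, 1609 and 1493 in control adults. The 3 groups did not overlap, and fertile F4 adults lay between the others. Its log2 fold changes were −1.40 over control (SE 0.15, limma adjusted p = 4.04e-06) and −1.03 over fertile F4 adults (SE 0.15, limma adjusted p = 7.78e-05). All 4 of these calls were kept under all 17 alternatives.

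Among the 164 *nhr-* genes tested in adults, members included, 4 had a lower log2 fold change in sterile F4 over control adults than *nhr-66*, and 32 had a higher one than *nhr-80*. Of the 159 other *nhr-* genes, 108 were higher and 13 lower in sterile F4 than in control adults (median log2 fold change 0.99), and 89 were higher and 13 lower than in fertile F4 adults (median 0.75). Over all genes tested 41.3% were higher and 41.8% lower than in control adults. Most of these receptor genes thus moved in the direction of *nhr-80* and against that of *nhr-66*. With quantile normalization 41 of the other *nhr-* genes were higher and 23 lower than in control adults, and 31 were higher and 27 lower than in fertile F4 adults. The ratio of *nhr-80* to *nhr-66* within a library, which no scaling between libraries changes and which was chosen after its values were seen, was 0.80, 0.43 and 0.56 in sterile F4 adults, against 0.056, 0.086 and 0.094 in control adults. Fertile F4 adults had ratios of 0.12, 0.11 and 0.098, and the mean ratio in sterile F4 adults was 7.61 times that in control adults. In larvae the mean ratio lay between 0.22 and 0.25 in all 4 groups.

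*sbp-1* had 1004, 662 and 848 normalized counts in sterile F4 adults, 500, 484 and 453 in fertile F4 adults, and 489, 455 and 443 in control adults. The sterile libraries lay above all others and spread more widely, and the log2 fold changes were 0.84 over control (SE 0.15, limma adjusted p = 0.000243) and 0.79 over fertile F4 adults (SE 0.15, limma adjusted p = 0.000498). *nhr-13* had 82.4, 71.4 and 115 normalized counts in sterile F4 adults, 122, 128 and 113 in fertile F4 adults, and 169, 146 and 136 in control adults. It was lower than in control adults (log2 fold change −0.76, SE 0.21, adjusted p = 0.00439, limma), but its sterile and fertile groups overlapped through sterile replicate 3. Against fertile F4 adults the log2 fold change of −0.46 (SE 0.21, limma adjusted p = 0.0586) passed without that library (adjusted p = 0.0104, limma) and with quantile normalization (adjusted p = 0.00160, limma). The calls of *sbp-1* in both comparisons, and that of *nhr-13* against control, were kept under all 17 alternatives.

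*nhr-62*, the scarcest of the regulators per kb in adults, had 157, 87.3 and 113.9 normalized counts in sterile F4 adults, 88.97, 52.6 and 53.9 in fertile F4 adults, and 65.6, 87.9 and 56.9 in control adults. Its groups overlapped in both comparisons. The log2 fold change over control was 0.74 (SE 0.29, limma adjusted p = 0.0316), and it was not called without control replicate 1 (adjusted p = 0.0806) or 3 (0.113), without sterile replicate 1 (0.118) or 3 (0.0565), or with quantile normalization (0.739, limma). The lowest value of this log2 fold change over the 17 alternatives was 0.13. Over fertile F4 adults the log2 fold change was 0.87 (SE 0.29, limma adjusted p = 0.0165), and it was not called without fertile replicate 2 (adjusted p = 0.0632) or 3 (0.0569), without sterile replicate 1 (0.0628), or with quantile normalization (0.315, limma).

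*mdt-15* had 2155, 2065 and 2314 normalized counts in sterile F4 adults, 2489, 2717 and 2742 in fertile F4 adults, and 2738, 2641 and 2630 in control adults. In these values the sterile libraries lay below all others, with log2 fold changes of −0.30 over control (SE 0.10, limma adjusted p = 0.0128) and −0.28 over fertile F4 adults (SE 0.10, limma adjusted p = 0.0175). The direction over control was not independent of the scaling: it was −0.097 with TMM (adjusted p = 0.312, limma), −0.094 in edgeR (adjusted p = 0.341), −0.21 in DESeq2 (adjusted p = 0.0263) and 0.35 with quantile normalization (adjusted p = 0.00158, limma), so no direction can be given for it. Over fertile F4 adults the call was lost without fertile replicate 2 (adjusted p = 0.0563), fertile replicate 3 (0.0608) or sterile replicate 2 (0.0574, limma), and the sign turned with quantile normalization (0.089). *nhr-49* had 1287, 1281 and 1397 normalized counts in sterile F4 adults, 1303, 1349 and 1439 in fertile F4 adults, and 1411, 1460 and 1404 in control adults. Its sterile and control libraries were separate by a small gap, and its log2 fold change of −0.11 (95% interval −0.32 to 0.11) turned to 0.088 with TMM and to 0.55 with quantile normalization (adjusted p = 0.000163, limma). Over all genes the median log2 fold change of sterile F4 over control adults was 0.14 as deposited, 0.33 with TMM and −0.22 with quantile normalization.

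**Figure D3:**
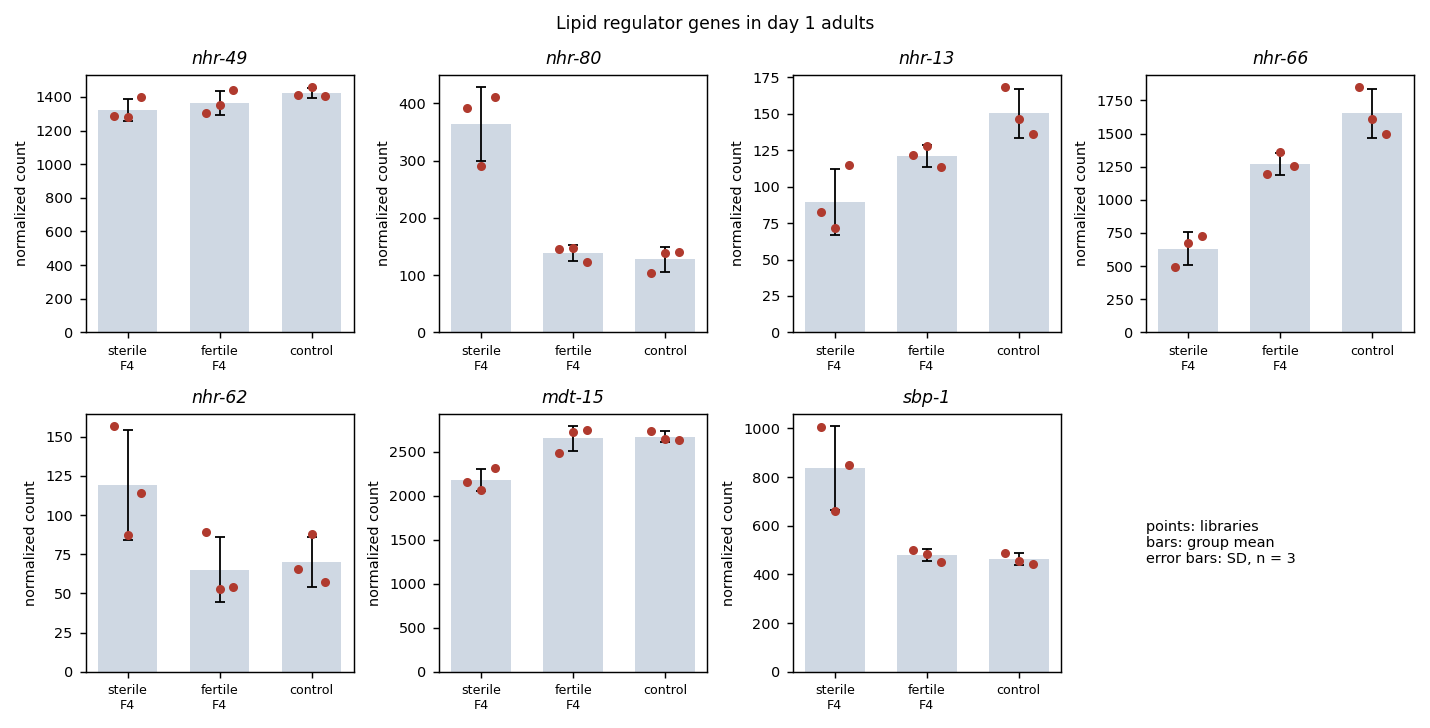
Normalized counts (y axis, linear, from 0) of the 7 regulators in day 1 adults, with points for libraries, bars for group means and error bars for the SD (n = 3). In *nhr-80* and *sbp-1* the sterile F4 libraries lie above all others, and in *nhr-66* the 3 groups are separate, with fertile F4 adults between sterile F4 and control adults.

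**Figure D4:**
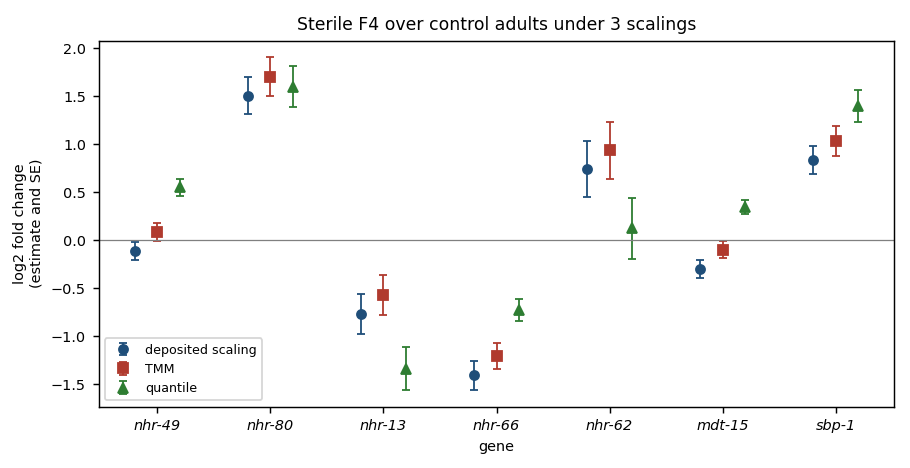
Log2 fold changes of sterile F4 over control adults (y axis, estimate with SE) for the 7 regulators (x axis) with the deposited scaling, TMM and quantile normalization. *nhr-80* and *sbp-1* stay above 0 and *nhr-66* and *nhr-13* below 0 under all 3, whereas *nhr-49* and *mdt-15* change sign between −0.11 and 0.55 and between −0.30 and 0.35.

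The other genes of Mediator fell in sterile F4 adults: all 27 measured were lower than in control adults (median log2 fold change −1.53, range −2.16 to −0.45), and 25 were lower than in fertile F4 adults (median −1.14). Over all genes tested 41.8% were lower than in control adults and 39.6% than in fertile F4 adults. With TMM and with quantile normalization 26 and 25 of the 27 were lower than in control adults. *cdk-8*, the kinase gene of the complex, averaged 438 ± 63 normalized counts in sterile F4 adults and 1737 ± 92 in control adults (SD, n = 3 each), a log2 fold change of −1.99 (adjusted p = 2.17e-07, limma). *sur-2*, the MED23 gene, averaged 783 ± 136 in sterile F4 and 3213 ± 173 in control adults, a log2 fold change of −2.05 (adjusted p = 2.64e-07, limma). *mdt-15* lay above all 27 in sterile F4 over control adults, and above 26 of 27 over fertile F4 adults. Within libraries, log2 of *mdt-15* exceeded the mean log2 of the other subunit genes by 2.97 ± 0.25 in sterile F4 adults, 2.15 ± 0.01 in fertile F4 adults and 1.75 ± 0.03 in control adults (SD, n = 3 each), with no overlap between the 3 groups. As in larvae, this ratio was chosen after its values were seen.

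Targets of the regulators were mostly higher in sterile F4 adults. All 10 NHR-49 targets were higher than in control adults (median log2 fold change 1.47), and 8 were higher than in fertile F4 adults (median 1.37). Over all genes tested 41.3% were higher and 41.8% lower than in control adults, and 38.8% and 39.6% than in fertile F4 adults. *fat-5* had 1512, 1219 and 1338 normalized counts in sterile F4 adults, 410, 337 and 411 in fertile F4 adults, and 300, 274 and 252 in control adults. Its log2 fold changes were 2.30 over control (SE 0.14, limma adjusted p = 1.98e-07) and 1.81 over fertile F4 adults (adjusted p = 3.16e-06, limma). *fat-6* and *fat-7* were higher than in control adults by 1.16 and 1.33 on the log2 scale (adjusted p = 4.88e-06 and 0.000249, limma), and *icl-1*, the glyoxylate cycle gene, by 1.58 (adjusted p = 4.22e-07, limma). *fat-7* over fertile F4 adults was 0.66 (adjusted p = 0.0241, limma), a call that was lost without fertile replicate 2 (0.0568) or 3 (0.0581) or sterile replicate 2 (0.107). *acs-2* averaged 1256 ± 195 normalized counts in sterile F4 and 988 ± 10 in control adults, and its log2 fold change of 0.33 (adjusted p = 0.0274, limma) was not called without any 1 of the 3 control replicates (0.0682, 0.0656 and 0.0599) or without sterile replicate 2 (0.0857) or 3 (0.110).

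Of the 14 lipogenic targets, 9 were higher and 1 lower in sterile F4 than in control adults (median 0.77), and 12 were higher and 1 lower than in fertile F4 adults (median 0.77). *fasn-1* averaged 28761 ± 2741 normalized counts in sterile F4 and 10383 ± 464 in control adults, a log2 fold change of 1.47 (adjusted p = 3.42e-07, limma), and *fat-2*, an oleate desaturase gene, averaged 11004 ± 1828 in sterile F4 and 3691 ± 561 in control adults, a log2 fold change of 1.57 (adjusted p = 3.16e-06, limma). Of 26 other lipid regulators 11 were higher and 8 lower than in control adults. Over all genes tested 83.0% passed against control adults (41.3% higher, 41.8% lower) and 78.4% against fertile F4 adults, so calls as such were not more frequent in these 2 lists. Among the other lipid regulators were 2 genes with large changes. The receptor gene *nhr-76* had 817 ± 106 normalized counts in sterile F4 and 113 ± 7 in control adults (log2 fold change 2.84, adjusted p = 2.05e-07, limma), and *mxl-2*, a Mondo partner gene, averaged 252 ± 25 in sterile F4 and 849 ± 60 in control adults (log2 fold change −1.75, adjusted p = 3.15e-07, limma).

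These comparisons came with large shifts of tissue markers. The summed level of 12 germline markers ranged from 12530 to 20773 normalized counts in sterile F4 adults, against 52762 to 61324 in control adults, and all 12 were lower. That of 15 oocyte and embryo markers ranged from 71585 to 90630 in sterile F4 adults, against 209158 to 245310 in control adults, with 13 lower and 1 higher. Sperm markers went the other way, from 15351 to 18402 in sterile F4 adults, against 227 to 475 in control adults, with all 15 tested higher and 1 of the 16 at 0 in all control libraries. The 11 intestine markers summed to 75663 to 85668 in sterile F4 adults, against 40336 to 45118 in control adults, with 7 higher and none lower, and the 9 body wall muscle markers to 335501 to 398544, against 132480 to 143938, with 8 higher. Over all genes tested 41.3% were higher and 41.8% lower in sterile F4 than in control adults. In fertile F4 adults the germline sum ranged from 35706 to 45362 and the intestine sum from 41284 to 46955. The sperm sum was 586 to 1533 in fertile F4 adults, against 227 to 475 in control adults, with 8 of 15 higher, and the oocyte and embryo sum was 154593 to 178834, against 209158 to 245310, with none past the threshold. Of the 12 germline markers 2 were lower and of the 9 body wall muscle markers 3 were higher in fertile F4 than in control adults. There 9.86% of all genes were higher and 12% lower. The part of these shifts in the values of the regulators, of the Mediator genes and of their targets was not tested.

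**Figure D5:**
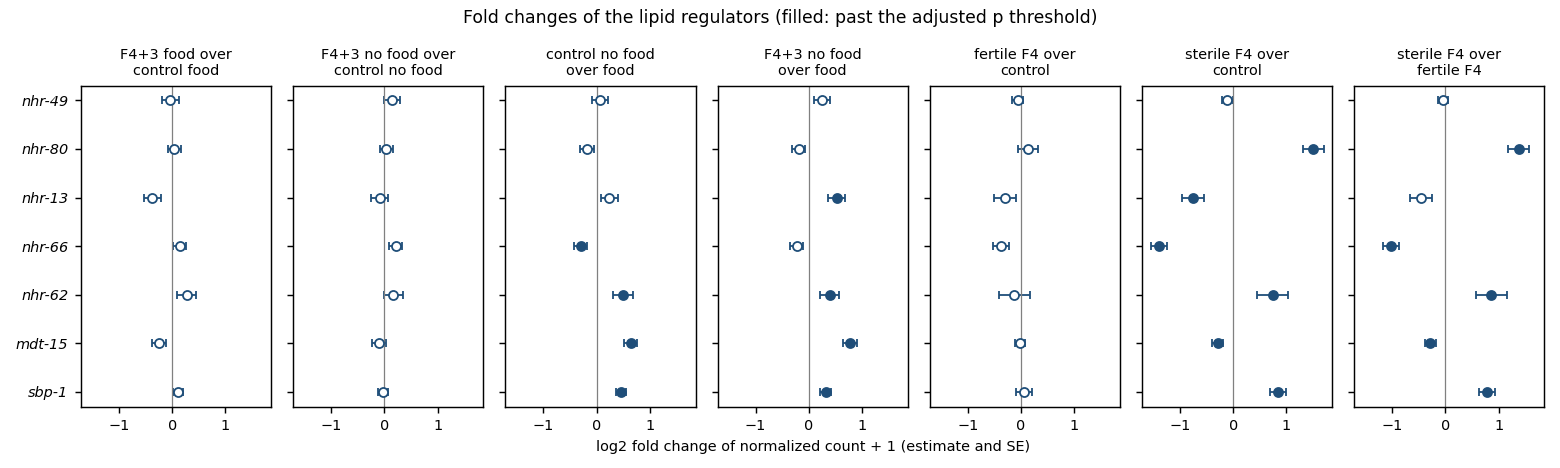
Log2 fold changes (x axis, estimate with SE, on normalized count plus 1) of the 7 regulators (rows) in 7 comparisons (panels), with filled points for genes past the adjusted p threshold of 0.1 in larvae or 0.05 in adults. Filled points number 4 in each comparison of food, 6 in sterile F4 over control and 5 in sterile F4 over fertile F4 adults, and all points are open in the 2 ancestry comparisons and in fertile adults, while the signs of *mdt-15* and *nhr-49* in the comparisons of sterile and of fertile adults depend on the scaling.

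The regulators did not follow 1 common pattern over the 21 libraries. After each gene's values were centred on log2 within each stage, the closest pairs among the 7 were *mdt-15* with *nhr-13* and *sbp-1* with *nhr-62*, whose root mean square (RMS) differences were 0.236 and 0.238. Among all 11633 genes measured at both stages, closer ones existed for each. *nhr-49* was most like *eat-17* and *gpb-1* (0.085 and 0.11), *mdt-15* was most like *ztf-17* and *Y57E12AL.1* (0.10 and 0.11), and *nhr-66* was most like *C35D10.6* and *ark-1* (0.097 for both). *sbp-1* was most like *rimb-1* and *F49E2.2* (0.12 and 0.13), *nhr-13* like *epc-1* and *tbc-9* (0.14 and 0.16), *nhr-80* like *mlt-2* and *ZK1320.13* (0.14 for both), and *nhr-62* like *T10B10.4* and *C06A8.8* (0.20 for both). These differences are descriptions over libraries that share their groups.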

How the data were processed

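RNA of whole N2 animals was sequenced in 12 L1 and 9 adult libraries, made with the Ovation Universal kit. The authors aligned the reads with Subread to the WS220 genome, assigned them to genes by featureCounts and scaled the libraries by DESeq2 size factors (versions not given in the sources used here). The deposited per-library signal is this DESeq2-normalized count. Deposited log2 fold changes, p-values and group means of the authors' own comparisons were not used. Of the L1 rows 23184 of 23185 were used and of the adult rows 17720 of 17723, since the others held shifted or filled cells. WBcel235, which is not the authors' build, gave exon lengths, chromosomes and overlaps only, and 22918 and 17545 identifiers matched it.

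Genes with a mean normalized count of 10 or more were kept, and 1 was added before the log2 transformation. Each table was fitted with limma 3.58.1 in R 4.3.3 with its trend option, with all groups of a stage in 1 fit and Benjamini-Hochberg adjustment over all genes tested. Fold changes on this scale understate those of low genes. Thresholds on adjusted p were 0.1 for larvae and 0.05 for adults. Adjusted p are from limma unless edgeR or DESeq2 is named, and 95% intervals are from its moderated test. The code was tested on simulated data.

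The members and gene lists were chosen with earlier results of these data known. Named genes were all 7 members, *fat-5*, *fat-6*, *fat-7* and *acs-2* in each comparison, for each list and comparison the called genes of smallest p (3 at most), and the 2 genes most alike to each member; those given here are a part of these. Lists were NHR-49 targets, lipogenic targets of SBP-1 and MDT-15, Mediator subunits, other lipid regulators, other *nhr-* genes and tissue markers.

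Alternatives were a pseudocount of 0.5, no filter, TMM or quantile scaling, only the groups compared, a replicate block, edgeR 4.0.16 and DESeq2 1.42.0 on whole reads recovered from the values, and each library left out in turn. For 8 libraries that recovery was not covered by a separate check of units. Same-numbered sterile and fertile libraries deviated together over genes, with correlations of 0.384, 0.183 and 0.175, against −0.245 to 0.0986 for other numbers. Differently numbered control and fertile libraries reached 0.202, however. Pairing of sterile and fertile libraries by number is therefore likely but not settled. Between control larvae with and without food, same-numbered libraries had correlations of 0.144, 0.0525 and 0.154, and the others −0.211 to 0.0815. Over all L1 libraries the medians were 0.0756 for the same number and −0.0331 for other numbers, with overlapping ranges. Whether numbers pair the larval libraries is therefore not settled, and the main fits treated all libraries as unpaired. Control adults showed no pairing by number with F4 adults, although the replicate block applied the numbers to them too.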

Additional observations from a re-analysis of the deposited data

How the results depend on the processing

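The number of regulators past the threshold was kept within 1.5 times in all alternatives except these: for fertile F4 over control adults it was 1 in place of 0 with only the groups compared, and leaving out single libraries moved it from 2 to 5 (control larvae, no food over food, main value 4), from 0 to 1 (fertile F4 over control) and from 3 to 6 (sterile F4 over fertile F4, main value 5, 3 without fertile replicate 2 or 3). With the replicate block 5 of the 7 passed between sterile and fertile F4 adults, as without it, *nhr-13* had an adjusted p of 0.0755 and *mdt-15* of 0.0306 (limma), and the block changed no other call of a regulator, while over all genes it called 52 in place of 2 between F4+3 and control larvae with food and 3 in place of 0 without food.

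Signs that turned were all of log2 fold changes that had not passed, except that of *mdt-15* in sterile adults; their causes were not tested. With TMM, in fertile F4 over control adults *nhr-49* was 0.084, *nhr-62* 0.021, *mdt-15* 0.14 and *fat-6* 0.12, in sterile F4 adults *nhr-49* was 0.088 over control and 0.0045 over fertile, and the ancestry difference of *nhr-80* was 0.0016. With quantile normalization, in fertile F4 over control adults *nhr-49* was 0.23, *mdt-15* 0.26 and *fat-6* 0.25, in sterile F4 over control adults *nhr-49* was 0.55 and *mdt-15* 0.35, over fertile *nhr-49* was 0.33 and *mdt-15* 0.089, and *nhr-80* without over with food was 0.017 in control and 0.0029 in F4+3 larvae. With edgeR, in fertile F4 over control adults *nhr-49* was 0.083, *nhr-62* 0.049, *mdt-15* 0.14 and *fat-6* 0.12, in sterile F4 adults *nhr-49* was 0.089 over control and 0.0062 over fertile, and the ancestry difference of *nhr-80* was 0.0077. With DESeq2, *mdt-15* was 0.020 in fertile F4 over control adults and *nhr-49* 0.011 in sterile over fertile F4 adults.

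Leaving out 1 library turned further signs, all of changes that had not passed. In F4+3 over control larvae with food the range was −0.21 to 0.076 for *nhr-49*, −0.071 to 0.11 for *nhr-80*, −0.28 to 0.038 for *fat-5* and −0.13 to 0.072 for *fat-7*, and without food −0.0084 to 0.092 for *nhr-80*, −0.22 to 0.011 for *nhr-13*, −0.079 to 0.14 for *fat-5* and −0.24 to 0.15 for *fat-6*. In control larvae without over with food *nhr-49* ranged from −0.12 to 0.17. The ancestry difference ranged from −0.078 to 0.10 for *nhr-80*, −0.039 to 0.17 for *nhr-66*, −0.27 to 0.043 for *nhr-62* and −0.015 to 0.27 for *mdt-15*, and in fertile F4 over control adults the range was −0.014 to 0.22 for *nhr-80*, −0.37 to 0.048 for *nhr-62*, −0.038 to 0.032 for *mdt-15* and −0.15 to 0.037 for *fat-6*.

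Of all single values, 2373 kept direction and side of the threshold, 65 lost it, 23 gained it and 59 turned sign. Over all genes, calls between F4+3 and control larvae were 216 with food and 48 without in DESeq2, against 2 and 0 in limma, and the ancestry difference had 17 calls in DESeq2 and 1 with the block, against 0. In fertile F4 over control adults 2936 genes passed, 45.1% of them higher, against 70.4% with TMM and 72.5% of 1432 with quantile normalization, and 5011 passed with only the groups compared. Precision with 3 libraries per group is given by the 95% intervals.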

Other observations

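Among the regulators, spread between libraries of a group differed by gene. In adults *nhr-49* varied by 2.14 to 5.06% of its mean within a group, and *nhr-62*, the scarcest per kb there, by 22.8 to 31.7%, so the same fold change was less certain in *nhr-62*.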
